A study of Mus musculus with 42 samples.

Results

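Atorvastatin was compared with no treatment in the livers of mice fed a Western-type diet (WTD), across every gene that was expressed. The libraries labelled WTD&Atorvastatin32w (16 mice) were set against those labelled WTD32w (16 mice), so 32 of the 42 libraries of the series entered, and the chow-fed mice did not. All 32 animals were female transgenic APOE*3-Leiden mice, which carry a human apolipoprotein E variant and respond to dietary cholesterol with raised plasma lipids. They were 8 to 14 weeks old when they started a run-in of 3 weeks on WTD, a diet with 15% cocoa butter, 40.5% sucrose and 1% cholesterol. The groups were matched on body weight, age and plasma lipids, and both ate WTD until week 32. For the treated group atorvastatin was mixed into the food at 3.0 mg per kg of body weight per day, raised to 4.5 mg from week 5. Both groups also received 0.05% sodium cholate, a bile salt, from week 22, and the atorvastatin group by design differed from the other in the drug alone. Each library came from the frozen liver of 1 mouse, mice were housed in groups, and the cages are not given.

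Statins block the synthesis of cholesterol. When sterols in the endoplasmic reticulum fall, the escort protein SCAP lets the transcription factor SREBP-2 reach the Golgi, where it is cut and released to switch on the genes of cholesterol synthesis and uptake. The liver answers a diet rich in cholesterol and sugar with fat storage, recruited macrophages and scar matrix, so a whole-liver library mixes hepatocytes with macrophages, stellate cells, bile duct cells and endothelium. In such bulk tissue, fewer cells of a type and less RNA per cell cannot be told apart.

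Levels are given as CPM, the read pairs counted on a gene as a share of the scaled total of its library, so they are no amounts per liver. Fold changes are log2 values of atorvastatin over WTD, given with their standard error (SE). They were tested by quasi-likelihood in edgeR, the p values being adjusted as Benjamini and Hochberg proposed, across the 14595 genes that passed the count filter. A gene was called at an adjusted p under 0.01. Total counts were 15661381 to 36224054 on WTD and 15908421 to 34464242 with atorvastatin, and their means did not differ beyond the spread between mice (permutation test, two-sided p = 0.83).

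Some libraries stood apart. For the gene lists below the count without them is given where the number called, both directions together, differed by over 1.5 times. A shift of the higher or the lower count alone can therefore go unmentioned. The share of weak genes (1 to 2 CPM) that had no count at all was 0% to 48.5% on WTD (median 9.64%). With atorvastatin this share was 0% to 20.8% (median 0.21%). Weak genes were picked for WTD and treated mice separately, so the groups were scored on different genes. The means had p = 0.012 (permutation test, two-sided). Because the gene sets followed the true labels, this p cannot decide whether the groups differ. The share exceeded 20% in the WTD mice Gen#10, Gen#11, Gen#13, Gen#20 and Gen#21 and in the treated mouse Gen#29. The WTD mouse Gen#20 also lay among the treated mice in its expression. On 86.2% of the called genes it was on the atorvastatin side of the midpoint between the group medians, against 2.20% to 39.6% for the other 15 WTD mice. The treated mice ranged from 28.7% in Gen#22 and 45.1% in Gen#28 to 98.4% in Gen#27. Gen#23, Gen#24 and Gen#25 lay at 52.5%, 56.4% and 58.1%, and the remaining treated mice at 75.5% or more. Because these genes were called on the same mice, the positions are a description. Why Gen#20 lay there was not tested.

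**Figure D1:**
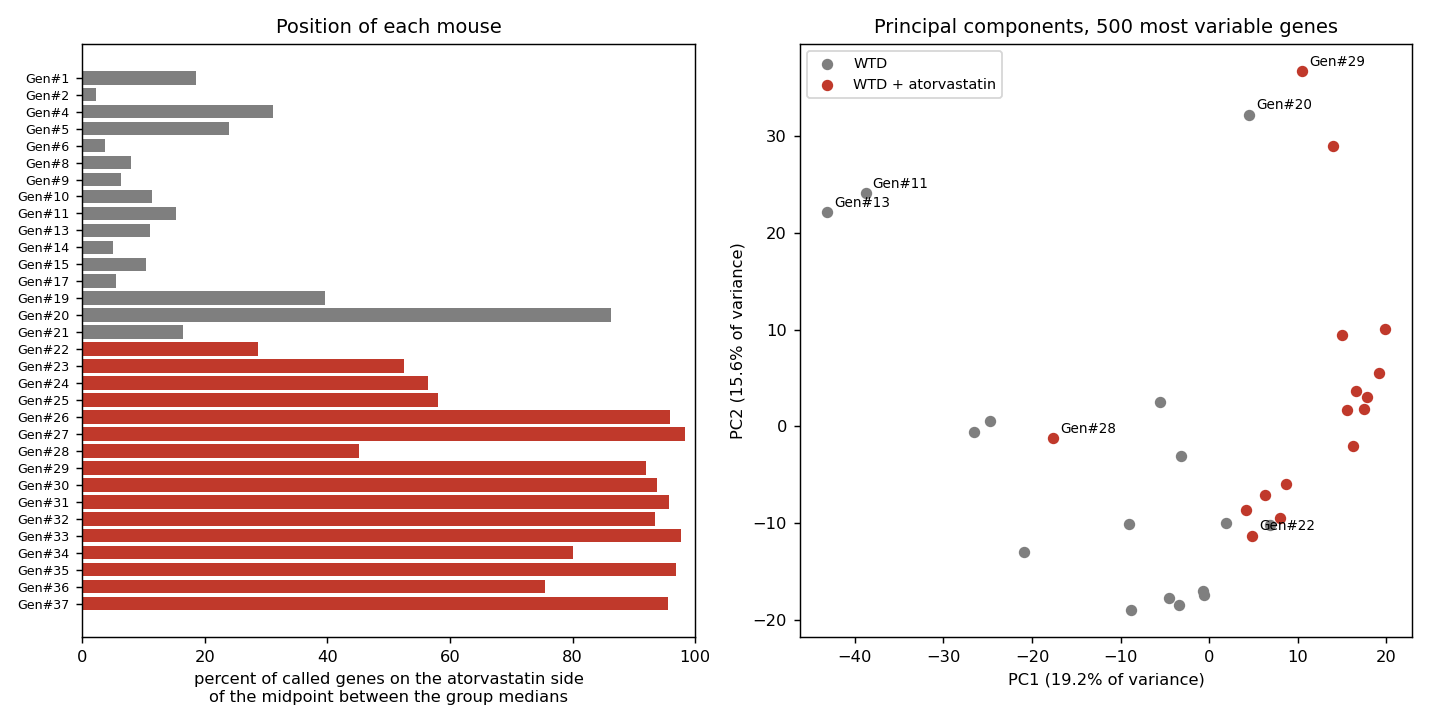
Left, the percent of the 1361 called genes on which each mouse lay on the atorvastatin side of the midpoint between the group medians (grey bars, 16 WTD mice; red bars, 16 treated mice). Right, the first 2 principal components of log2 CPM over the 500 most variable tested genes, with 1 point per mouse. Gen#20 reaches 86.2% in the left plot, and Gen#11 and Gen#13 lie farthest to the left in the right plot.

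Of the tested genes, 1361 (9.33%) were called, 719 higher with atorvastatin (4.93%) and 642 lower (4.40%). Most shifts were small. The median log2 fold change was 0.43 for the higher genes and -0.56 for the lower ones. A log2 fold change of at least 1 in either direction was reached by 52 higher and 68 lower genes. Over all tested genes the median was -0.01. The lower genes were weaker, with a median WTD level of 37.5 CPM against 92.1 CPM for the higher genes and 18 CPM for all tested genes. Calls were more common among abundant genes, 817 of the 3502 with a mean of at least 1000 counts. The shares over all tested genes are therefore a low yardstick for the lists of abundant genes below. With the 10 chow-fed mice added to the fit, 754 genes were called higher and 352 lower. The share of higher genes thus went from 52.8% to 68.2%. It was 49.2% with RLE scaling, 45.4% with upper-quartile scaling, 48.0% with DESeq2 and 47.0% with at least 10 counts required in every library. limma-voom gave 54.0%, no filter 58.5%, no robust estimation 52.5% and leaving out the 20 most abundant genes 52.7%. Without the 6 libraries short of weak genes it was 53.7%, and with the share of missed weak genes as a covariate 54.4%. Which direction held more genes therefore depended on the setting.

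**Figure D2:**
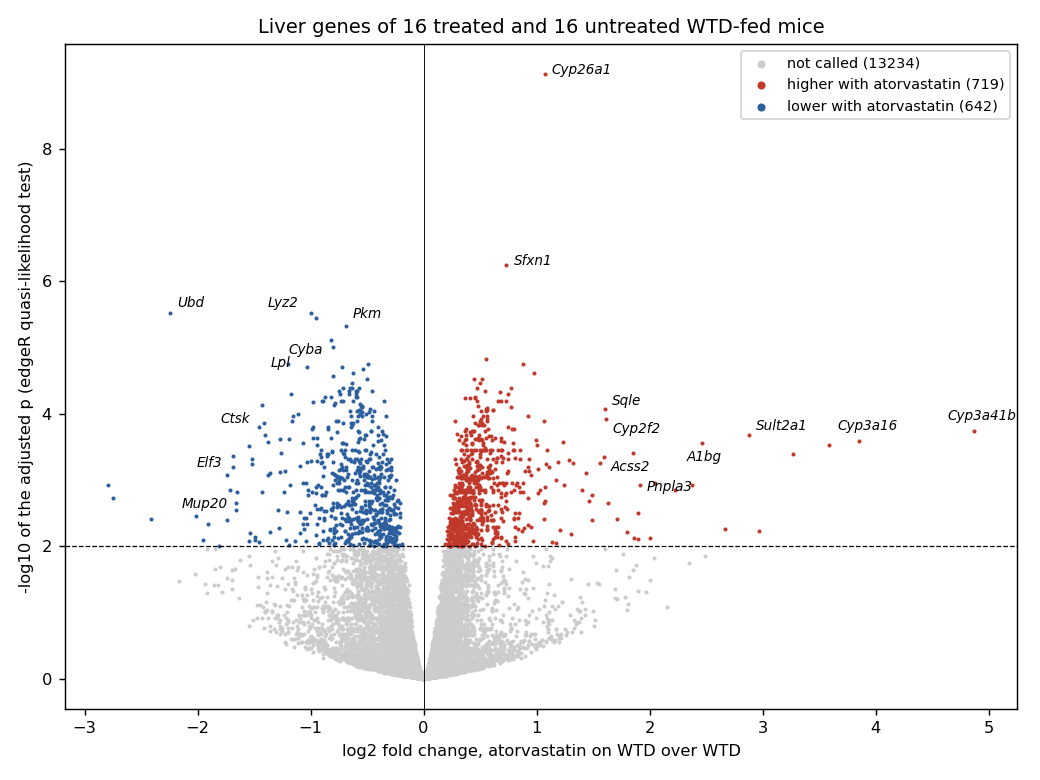
Each point is 1 of the 14595 tested genes, with its log2 fold change (atorvastatin on WTD over WTD) on the x axis and the negative log10 of its edgeR adjusted p on the y axis. Points above the dashed line at 0.01 were called, 719 higher (red) and 642 lower (blue), and Cyp26a1 lies highest.

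Single mice of the groups nearly always overlapped. In exactly 1 tested gene did no treated mouse reach any WTD mouse. This was Srp14 (chr2:118475850-118479711, GRCm38), which encodes a subunit of the signal recognition particle. Its level was 39.6 to 62.5 CPM (median 43.1) on WTD and 26 to 39.2 CPM (median 34.9) with atorvastatin (log2 fold change -0.48 ± 0.08, edgeR adjusted p = 8.5e-05). For the median called gene, 15 of the 16 treated mice lay beyond the WTD median on the side of the change. Without Gen#20, 11 genes did not overlap, and without the 6 libraries short of weak genes, 17 did not. With fewer mice, groups overlap less easily, so these counts cannot be set against that of all 32 libraries.

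Most genes of cholesterol synthesis rose. Among the 8 tested genes from acetyl-CoA to farnesyl diphosphate, 5 were called higher and none lower, with a median log2 fold change of 0.86. Hmgcs1, which makes HMG-CoA, was at 75.1 to 216 CPM (median 141) on WTD and 109 to 354 CPM (median 261) with atorvastatin (log2 fold change 0.75 ± 0.14, edgeR adjusted p = 0.00048). The groups overlapped, with 15 of 16 treated mice above the WTD median. Acat2, which condenses acetyl-CoA, rose by 0.66, the isomerase Idi1 by 1.07 and the kinase Pmvk by 0.69. Fdps and Mvd had fold changes of 1.10 and 1.05 but were not called, with adjusted p values of 0.14 and 0.02 in the same edgeR test. Mevalonate kinase (Mvk) had 0.18 ± 0.14 (adjusted p = 0.42, edgeR).

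All 12 genes from squalene to cholesterol were called higher, with a median log2 fold change of 0.75. The largest of these was Sqle, squalene epoxidase, a rate-controlling step. Sqle was at 4.66 to 30.1 CPM (median 12) on WTD and 7.26 to 67.6 CPM (median 39.7) with atorvastatin (log2 fold change 1.60 ± 0.25, edgeR adjusted p = 8.5e-05). The treated mouse Gen#28 was lowest of its group at 7.26 CPM, and 15 of the 16 treated mice exceeded the WTD median. Lss, which closes the sterol rings, was at 17.9 to 50.4 CPM (median 30.0) on WTD and 33.6 to 89.9 CPM (median 59.8) with atorvastatin (log2 fold change 0.92 ± 0.15, edgeR adjusted p = 0.00011). Nsdhl, which removes a methyl group from the ring, was at 4.66 to 29.4 CPM (median 19.9) on WTD and 13.9 to 58.8 CPM (median 43.6) with atorvastatin (log2 fold change 1.07 ± 0.18, edgeR adjusted p = 0.00013). Without the 6 libraries short of weak genes, 11 of the 12 were called, and without Gen#20 all 12. The summed level of the 12 genes was 917 to 1956.5 CPM on WTD and 1314.9 to 2721.5 CPM with atorvastatin, so the groups overlapped also as a sum.

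SREBP-2 is known to act with NF-Y at a sterol regulatory element (SRE), so the promoters of these genes were read for both motifs. RefSeq promoters of GRCm38.p6, each from 250 bases before to 50 bases after a start site, were found for 30 genes of the 4 sterol lists (mevalonate arm, squalene to cholesterol, SREBP machinery, lipoprotein receptors and regulators). The SRE was searched as TCACNCCAC and the NF-Y box as CCAAT, both on either strand, and the motifs do not overlap in their letters. In the 4 sterol lists in that order, 6 of 8, 9 of 12, 10 of 10 and 5 of 12 genes had a promoter. The others could not be searched. The SRE was found in 1 of the 30 genes (3.33%) against 1.44% of all 27025 genes of the promoter table. The NF-Y box was found in 24 of the 30 (80.0%), including all 9 genes of the squalene to cholesterol list that had a promoter, against 41.1% of all genes. Within the sterol lists the SREBP machinery had 60.0%. The share was also high in lists outside these, 78.3% for the unfolded protein and integrated stress response and 76.9% for lipogenesis. It was 42.9% for bile acid synthesis and conjugation and 32.4% for large ribosomal subunit proteins. Shown here are the 250 bases before the start of Hmgcs1 on chr13:119690101-119690350 (plus strand), because it holds an SRE among NF-Y boxes. Capitals mark the SRE, whose first base lies 137 bases before the start, and the 3 NF-Y boxes, which here lie on the opposite strand and read ATTGG.
Hmgcs1: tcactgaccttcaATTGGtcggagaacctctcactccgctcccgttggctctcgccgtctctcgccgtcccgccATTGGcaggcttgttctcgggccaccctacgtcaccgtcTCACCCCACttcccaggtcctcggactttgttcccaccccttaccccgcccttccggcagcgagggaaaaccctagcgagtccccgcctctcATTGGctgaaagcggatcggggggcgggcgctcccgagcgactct
A match is a description of letters and not a shown binding site, and a promoter without a match says nothing about the factor.

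The SREBP machinery moved in part. Among its 10 tested genes 3 were called higher and none lower. Scap, the escort protein, was at 45.9 to 137 CPM (median 92.4) on WTD and 89.2 to 217 CPM (median 135) with atorvastatin (log2 fold change 0.66 ± 0.12, edgeR adjusted p = 0.00036). Srebf2, which encodes SREBP-2, was at 48.9 to 74.2 CPM (median 64.7) on WTD and 53.1 to 95.8 CPM (median 80.6) with atorvastatin (log2 fold change 0.32 ± 0.07, edgeR adjusted p = 0.0012). Insig1, which holds SCAP back and is itself a target, was at 113 to 403 CPM (median 202) on WTD and 132 to 827 CPM (median 469) with atorvastatin (log2 fold change 0.95 ± 0.24, edgeR adjusted p = 0.0051). Of the 16 treated mice 15, 15 and 14 exceeded the WTD median of Scap, Srebf2 and Insig1. Without the 6 libraries short of weak genes Scap alone stayed called, with adjusted p values of 0.01 for Srebf2 and 0.031 for Insig1, and without the treated mouse Gen#26 Insig1 was not called (adjusted p = 0.011, all by edgeR). Srebf1, which encodes the fatty acid branch SREBP-1, had a fold change of 0.42 ± 0.14 (edgeR adjusted p = 0.038).

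Among 11 genes of lipoprotein uptake and its control, 3 were called higher and 1 lower. Without Gen#20, 5 were higher and 2 lower. Stard4, a cytosolic sterol carrier, rose by 0.80, and Npc2, which hands cholesterol out of the lysosome, fell from a median of 243 to 193 CPM (log2 fold change -0.36 ± 0.07, edgeR adjusted p = 0.00041). The sterol sensors LXR and their efflux targets went both ways. Of 12 such genes 2 were higher and 1 lower, and the median was 0.04. Abcg1, a cholesterol exporter of macrophages, was at 64.1 to 104 CPM (median 83.1) on WTD and 34.8 to 90.2 CPM (median 53) with atorvastatin (log2 fold change -0.52 ± 0.10, edgeR adjusted p = 0.00036). Lcat and Soat2, which esterify cholesterol in plasma and in hepatocytes, rose by 0.41 and 0.38, whereas Abca1 had -0.22 ± 0.06 and Abcg5 -0.06 ± 0.12, neither of them called.

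Genes of bile acid handling leaned higher. Of 12 tested genes of synthesis and conjugation, 3 were called higher and all 12 fold changes were positive. Of 12 tested transporters and FXR genes 3 were higher. Over all tested genes 9.33% were called, and 817 of the 3502 with at least 1000 mean counts. Slc10a1, the transporter that takes up bile salts from portal blood, was at 125 to 581 CPM (median 169) on WTD and 123 to 703 CPM (median 462) with atorvastatin (log2 fold change 1.03 ± 0.22, edgeR adjusted p = 0.0014). The groups overlapped, with 15 of 16 treated mice above the WTD median. The export pumps Abcb11 and Abcc2 rose by 0.43 ± 0.09 and 0.44 ± 0.08, and 16 of 16 treated mice exceeded the WTD median of Abcc2. Akr1d1, a reductase of bile acid synthesis, rose by 0.68, and Slc27a5 and Baat, which conjugate bile acids, rose by 0.56 and 0.27. Cyp7a1, the rate-limiting enzyme, was at 22.8 to 146 CPM (median 46) on WTD and 29.7 to 181 CPM (median 87.6) with atorvastatin and was not called (log2 fold change 0.63 ± 0.23, edgeR adjusted p = 0.052). Without Gen#20 its adjusted p was 0.0053, and without the 6 libraries short of weak genes 0.0037. Without Gen#20 the calls were 6 of 12 in synthesis and 6 of 12 among transporters. Without the 6 libraries short of weak genes the calls were 5 and 6.

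Genes that make fatty acids leaned higher. Of 16 lipogenic genes 9 were called higher and 1 lower, with a median log2 fold change of 0.91. Acss2, which activates acetate and is an SREBP target, was at 81.6 to 327 CPM (median 143) on WTD and 67.6 to 899 CPM (median 432) with atorvastatin (log2 fold change 1.60 ± 0.30, edgeR adjusted p = 0.00045). Treated mice spread widely, from 67.6 CPM in Gen#28 upwards, and 9 of them exceeded the highest WTD mouse. Pnpla3, a lipid droplet protein controlled by SREBP-1 and sugar, was at 1.34 to 28.5 CPM (median 10.2) on WTD and 7.11 to 128 CPM (median 36.9) with atorvastatin (log2 fold change 1.91 ± 0.40, edgeR adjusted p = 0.0012). Acly rose by 1.46, Elovl6 by 1.14, Acacb by 1.08 and Me1 by 1.01, which supply cytosolic acetyl-CoA, elongate palmitate, make malonyl-CoA and supply NADPH. Mlxipl, which encodes the sugar sensor ChREBP, rose by 0.55 ± 0.12. Fasn and Thrsp had fold changes of 1.12 ± 0.32 and 1.10 ± 0.33 without being called (edgeR adjusted p = 0.014 and 0.02). The 1 lower member was Scd2, a desaturase of tissues other than hepatocytes (log2 fold change -0.41 ± 0.10, edgeR adjusted p = 0.0031). The count depended on the libraries. Without the 6 short of weak genes 3 of 16 were called higher, without Gen#20 12, and the median stayed between 0.81 and 1.01 in all settings.

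In triacylglycerol and VLDL assembly 5 of 11 tested genes were called higher. Gpam, which starts glycerolipid synthesis, rose by 1.28 ± 0.24. Mttp, which loads lipid onto apolipoprotein B, was at 155 to 349 CPM (median 230.0) on WTD and 187 to 365 CPM (median 303) with atorvastatin (log2 fold change 0.36 ± 0.08, edgeR adjusted p = 0.0017), and Tm6sf2, a further VLDL factor, rose by 0.45. Apob itself had 0.19 ± 0.07 and was not called. Of 11 tested apolipoprotein genes, Apom (0.49), Apoh (0.38) and Apof (0.35) were called higher and none lower, with 6 higher without Gen#20, and Apoe, of which the transgene carries a human form, had -0.07 ± 0.07. Among 12 lipid droplet genes Plin4, a perilipin of small droplets, was the 1 called, and without Gen#20 there were 2 higher ones as well. Plin4 was at 15.4 to 54.6 CPM (median 32) on WTD and 4.25 to 35.1 CPM (median 9.52) with atorvastatin (log2 fold change -1.38 ± 0.28, edgeR adjusted p = 0.00083), and 15 of 16 treated mice were below the WTD median. Of the fatty acid uptake genes, Acsl5 rose by 0.57 while Lpl and Fabp4 fell. Without Gen#20, and also without the 6 libraries short of weak genes, 3 of 13 were called higher. Lpl, lipoprotein lipase, which adult hepatocytes make little of and macrophages make, was at 324 to 984 CPM (median 702) on WTD and 211 to 541 CPM (median 288) with atorvastatin (log2 fold change -1.03 ± 0.14, edgeR adjusted p = 2e-05). All 16 treated mice were below the WTD median, and the lowest WTD mouse was Gen#20.

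None of 15 genes of mitochondrial fatty acid oxidation and none of 16 PPAR alpha targets and ketogenic genes was called by edgeR's quasi-likelihood test. All 15 oxidation genes had positive fold changes of 0.05 to 0.26, with a median of 0.16. The smallest adjusted p was that of Acaa2, a thiolase (log2 fold change 0.26 ± 0.08, edgeR adjusted p = 0.014). limma-voom with sample weights called 8 of the 15 and 5 of the 16 higher, DESeq2 called 1 of each, and 6 and 5 had an unadjusted edgeR p under 0.05. Without Gen#20, edgeR called 3 of the 15 and 2 of the 16 higher, and without the 6 libraries short of weak genes 1 of each.

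**Figure D3:**
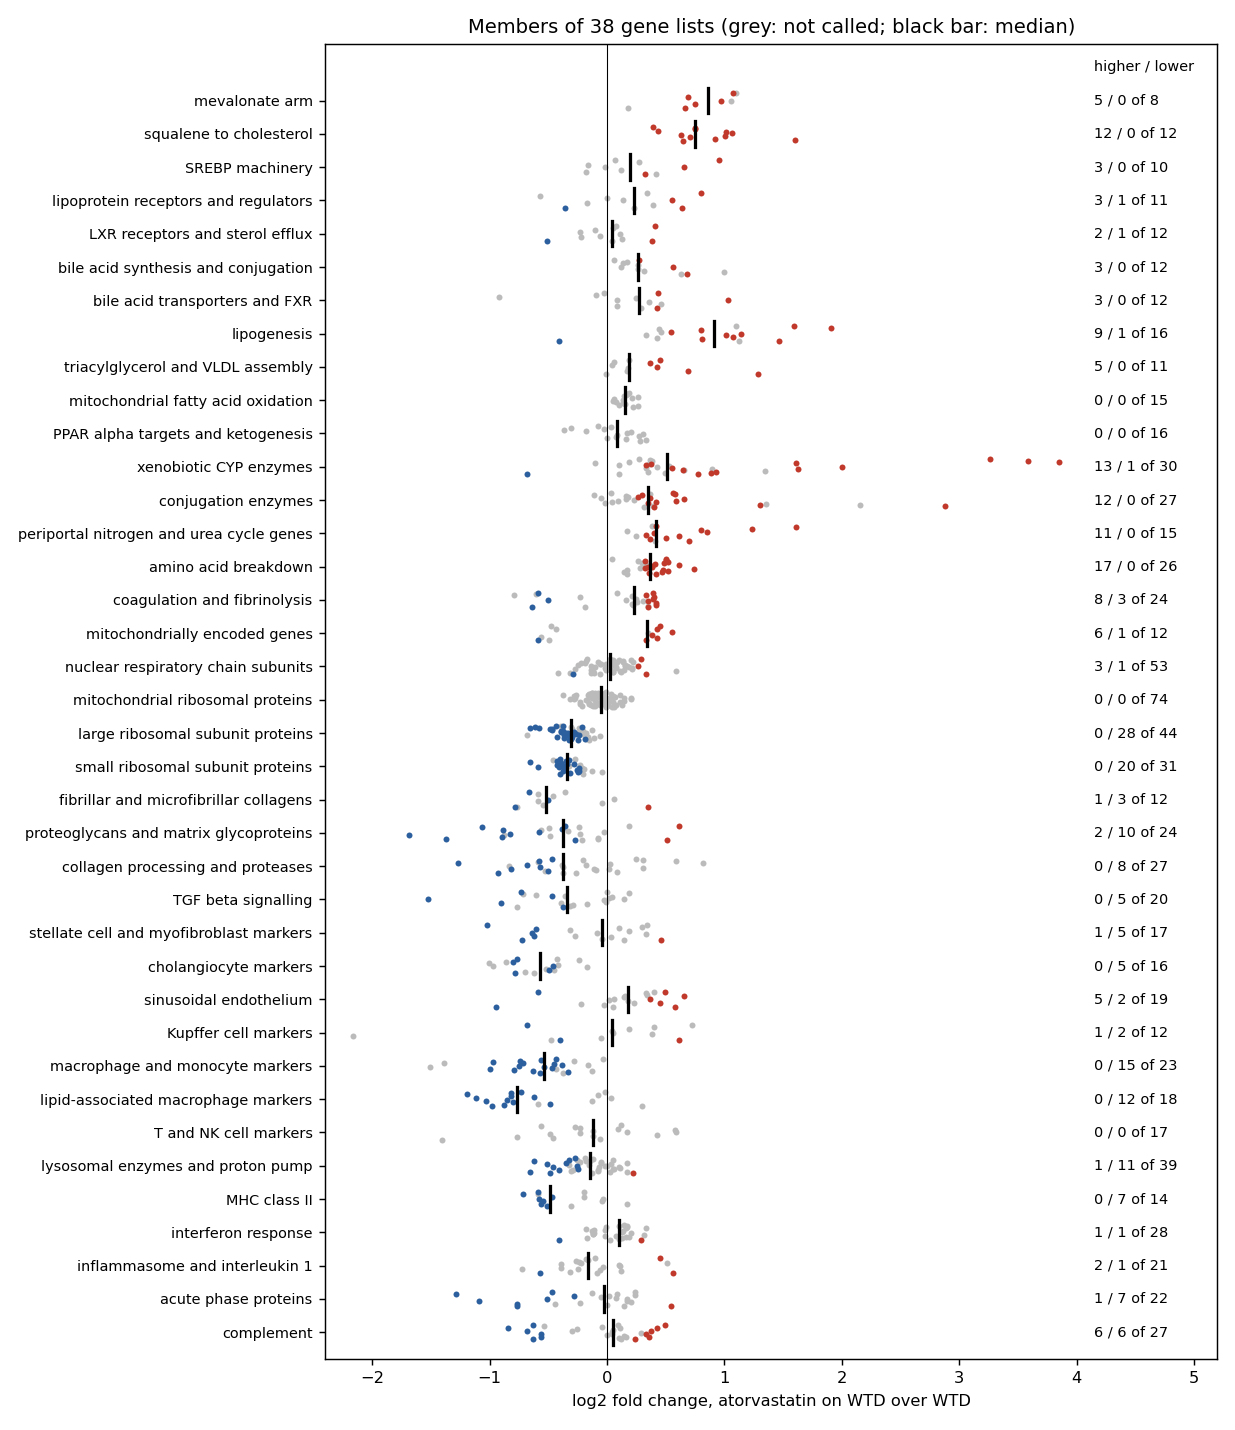
Each row is 1 of 38 gene lists, and each point is the log2 fold change (x axis, atorvastatin on WTD over WTD) of a tested member, red where called higher, blue where called lower and grey where not called. Black bars are list medians, and the numbers on the right are members called higher and lower of those tested. All 12 genes from squalene to cholesterol are red, and no ribosomal protein gene is red.

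The largest rises among genes with a mean of at least 100 counts were in clustered families of drug- and steroid-metabolizing enzymes. The 4 cytochrome P450 genes with the largest of all rises lie in the Cyp3a cluster on chromosome 5, Cyp3a41b, Cyp3a16, Cyp3a41a and Cyp3a44, with log2 fold changes of 4.87, 3.85, 3.59 and 3.26. Cyp3a41 and Cyp3a44 are known as genes expressed in the livers of female mice. Cyp3a16 was at 0.117 to 20.8 CPM (median 2.46) on WTD and 0 to 179 CPM (median 25.8) with atorvastatin (log2 fold change 3.85 ± 0.68, edgeR adjusted p = 0.00026). Treated mice spread over orders of magnitude, 9 of 16 exceeded the highest WTD mouse (Gen#20, 20.8 CPM), and Gen#28 had no count. These genes are near-identical copies, so counts may be split or lost among them and their single values are uncertain.

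Next came sulfotransferases of the Sult2a cluster on chromosome 7, which sulfate bile acids and steroids. Sult2a1 (chr7:13796246-13837409) was at 1.63 to 128 CPM (median 13.2) on WTD and 16.9 to 358 CPM (median 147) with atorvastatin (log2 fold change 2.88 ± 0.50, edgeR adjusted p = 0.00021). All 16 treated mice exceeded the WTD median, and 8 exceeded Gen#20, the highest WTD mouse at 128 CPM. Sult2a3 and Sult2a5 rose by 2.96 and 2.37, with the same doubt about shared reads. A1bg, a plasma glycoprotein gene known to be female-predominant in mouse liver, was at 1.21 to 44.7 CPM (median 13.2) on WTD and 11.7 to 254 CPM (median 58.8) with atorvastatin (log2 fold change 2.46 ± 0.44, edgeR adjusted p = 0.00028). Cyp2c69, of a Cyp2c cluster on chromosome 19, rose by 2.00 ± 0.52, but its call held in 11 of 32 fits that left out 1 mouse, and that of Sult2a3 in 24. Acpp, an acid phosphatase, was at 0 to 20.4 CPM (median 3.55) on WTD and 0.211 to 46.8 CPM (median 26.4) with atorvastatin (log2 fold change 2.23 ± 0.48, edgeR adjusted p = 0.0014).

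Over the whole list of 30 xenobiotic P450 genes 13 were called higher and 1 lower, with a median of 0.51. Outside the families above, Cyp1a2, which oxidizes caffeine and aromatic amines, was at 193 to 610.0 CPM (median 315) on WTD and 364 to 792 CPM (median 528) with atorvastatin (log2 fold change 0.78 ± 0.12, edgeR adjusted p = 7.9e-05). Cyp2f2, a periportal P450, was at 43.6 to 486 CPM (median 92.1) on WTD and 208 to 498 CPM (median 393) with atorvastatin (log2 fold change 1.61 ± 0.26, edgeR adjusted p = 0.00012). The 16 treated mice all lay above the WTD median, and 14 of the 16 WTD mice lay between 43.6 and 150.0 CPM, with Gen#19 at 232 and Gen#20 at 486 CPM. The lower gene was Cyp2d9, known as a male-predominant enzyme, at 25.3 to 68.3 CPM (median 34.4) on WTD and 14 to 47.7 CPM (median 22.3) with atorvastatin (log2 fold change -0.68 ± 0.16, edgeR adjusted p = 0.0023). Of 27 tested conjugation enzymes 12 were higher and none lower. Ugt2b1, a glucuronosyltransferase, was at 69.6 to 201 CPM (median 117) on WTD and 157 to 225 CPM (median 188) with atorvastatin (log2 fold change 0.66 ± 0.10, edgeR adjusted p = 6.4e-05), Ugt3a2 rose by 0.56 and Ugt2b5 by 0.37. Ugt1a1, Ugt1a6a and Ugt1a9, which share exons, had no count in any of the 32 libraries.

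The gene with the smallest p of all was Cyp26a1 (chr19:37697798-37701536), which breaks down retinoic acid. Its level was 18.3 to 38 CPM (median 26.9) on WTD and 37.6 to 67.5 CPM (median 59.7) with atorvastatin (log2 fold change 1.07 ± 0.10, edgeR adjusted p = 7.5e-10). The groups were nearly apart, as 15 of 16 treated mice exceeded the highest WTD mouse, and here Gen#20 lay within its own group at 27.7 CPM. The rises with the next smallest p were those of Sfxn1, a mitochondrial serine carrier, at 42.2 to 75.2 CPM (median 55.6) on WTD and 67.6 to 127 CPM (median 88.2) with atorvastatin (log2 fold change 0.73 ± 0.08, edgeR adjusted p = 5.7e-07), and Gramd1c, of a family that moves sterol from the plasma membrane to the endoplasmic reticulum, which rose by 0.56 ± 0.08. Kyat1, a kynurenine aminotransferase, was at 43 to 107 CPM (median 71.1) on WTD and 90.1 to 168 CPM (median 136) with atorvastatin (log2 fold change 0.88 ± 0.12, edgeR adjusted p = 1.8e-05). For each of these 4 genes all 16 treated mice were above the WTD median.

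**Figure D4:**
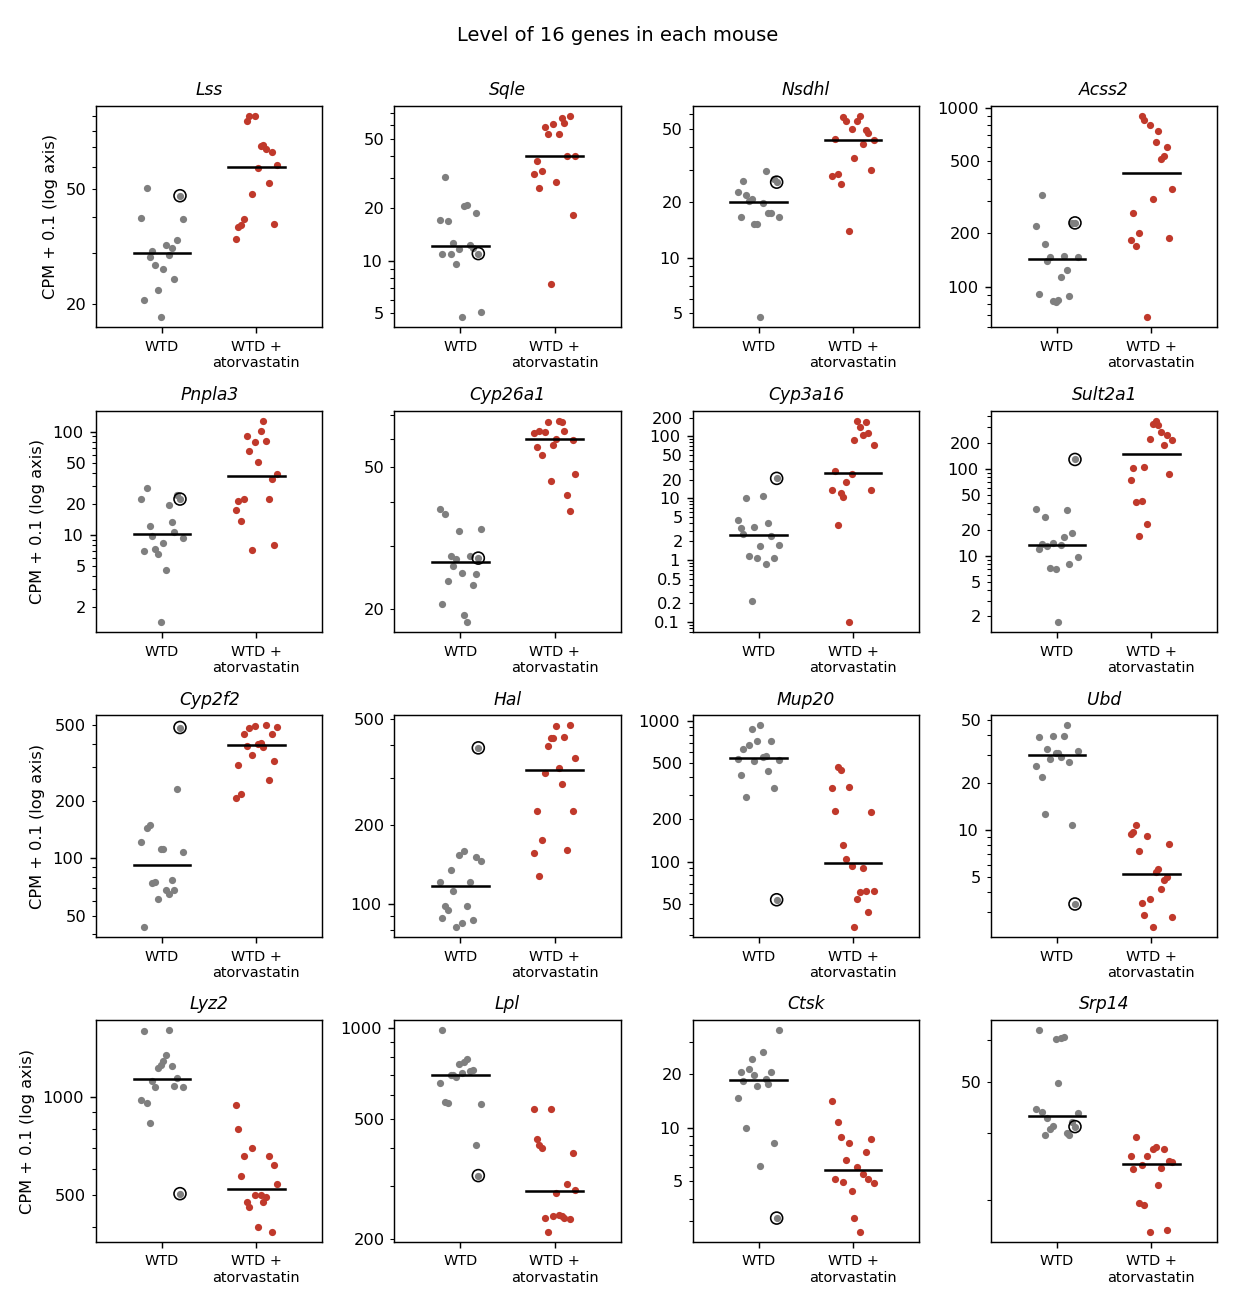
Level of 16 genes in every mouse as CPM + 0.1 on a log axis (grey points, 16 WTD mice; red points, 16 mice on WTD with atorvastatin; black bars, medians; ringed point, WTD mouse Gen#20). Srp14 is the only one of these genes whose groups do not overlap, and in Ubd, Lyz2, Mup20 and Hal the ringed mouse lies among the treated mice.

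The major urinary proteins, pheromone carriers made by the liver and encoded by near-identical genes, split. Of 22 genes 4 were tested. Mup20, a male pheromone also called darcin, was at 53.6 to 928 CPM (median 548) on WTD and 34.4 to 470.0 CPM (median 98) with atorvastatin (log2 fold change -1.66 ± 0.37, edgeR adjusted p = 0.0022). The 16 treated mice were all below the WTD median, and Gen#20, at 53.6 CPM, was the lowest WTD mouse. Mup3 went the other way, at 202 to 1062.2 CPM (median 281) on WTD and 313 to 2031.6 CPM (median 818) with atorvastatin (log2 fold change 1.19 ± 0.23, edgeR adjusted p = 0.00054), and all 16 treated mice exceeded the WTD median. Of 14 genes of the growth hormone and IGF axis 1 was called, and 3 were without Gen#20 and also without the 6 libraries short of weak genes. This was Ghr, the growth hormone receptor, at 228 to 530.0 CPM (median 285) on WTD and 262 to 553 CPM (median 405) with atorvastatin (log2 fold change 0.48 ± 0.10, edgeR adjusted p = 0.001). Cux2, a repressor known as a female-specific liver factor, had a fold change of 1.12 ± 0.33 and was not called (edgeR adjusted p = 0.017, and 0.0035 without Gen#20). Igf1 was not called either, with 0.13 ± 0.07. Among 14 hepatocyte transcription factors 2 were called, both higher. Hnf4a was at 324 to 672 CPM (median 485) on WTD and 510.0 to 662 CPM (median 600.0) with atorvastatin (log2 fold change 0.32 ± 0.06, edgeR adjusted p = 0.00067). Without Gen#20, and also without the 6 libraries short of weak genes, 4 of the 14 were called.

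Genes of nitrogen and amino acid metabolism leaned higher. Of 15 periportal genes 11 were called higher and none lower, with a median of 0.41, and of 26 tested genes of amino acid breakdown 17 were higher and none lower, with a median of 0.37. Hal, which starts histidine breakdown, was at 81.9 to 390.0 CPM (median 116) on WTD and 128 to 474 CPM (median 321) with atorvastatin (log2 fold change 1.23 ± 0.22, edgeR adjusted p = 0.00027). All 16 treated mice exceeded the WTD median, and Gen#20 was the highest WTD mouse by far at 390.0 CPM. Arg1, the arginase of the urea cycle, was at 497 to 1173.7 CPM (median 736) on WTD and 743 to 1679.7 CPM (median 1146.3) with atorvastatin (log2 fold change 0.61 ± 0.11, edgeR adjusted p = 0.00025), and Cps1, which admits ammonia to the cycle, was at 1036.1 to 2910.1 CPM (median 1567.7) on WTD and 1551.6 to 4264.9 CPM (median 2741.3) with atorvastatin (log2 fold change 0.70 ± 0.14, edgeR adjusted p = 0.00054). The groups overlapped in both. Cbs, of homocysteine removal, rose by 0.49 ± 0.09, Aldh6a1, of valine breakdown, by 0.50 ± 0.09 and Dpyd, of pyrimidine breakdown, by 0.52 ± 0.10. Tat, which degrades tyrosine, rose by 0.74 and Gls2, the liver glutaminase, by 0.85. Oat, Hpd and Afmid had no count in any library. Of 13 pericentral genes 2 were called higher, Cyp1a2 and Rgn (0.39), with a median of 0.29. Rgn was called in 12 of 32 fits that left out 1 mouse, and without Gen#20 there were 4 calls in the list. Glul and Cyp2e1, which mark the cells around the central vein, had 0.12 ± 0.15 and 0.36 ± 0.19.

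Of 21 tested genes of sugar metabolism 6 were higher and 2 lower. Pkm, the pyruvate kinase of non-hepatocytes and dividing cells, was at 70.0 to 173 CPM (median 124) on WTD and 52 to 109 CPM (median 78.4) with atorvastatin (log2 fold change -0.69 ± 0.09, edgeR adjusted p = 4.7e-06), and Pfkl, the liver-type phosphofructokinase, fell by 0.33. All 16 treated mice were below the WTD median in both. Pklr, the liver pyruvate kinase, rose by 0.80, and Pygl, which releases glucose from glycogen, was at 348 to 842 CPM (median 516) on WTD and 418 to 958 CPM (median 735) with atorvastatin (log2 fold change 0.45 ± 0.10, edgeR adjusted p = 0.002). With the share of missed weak genes as a covariate, 1 of the 21 was called higher and 2 lower.

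Hepatocyte markers leaned higher. Of 12 tested markers 7 were called higher and none lower. Alb, albumin, was at 37640.3 to 85546.7 CPM (median 50731.2) on WTD and 49363.6 to 106802.6 CPM (median 87109.1) with atorvastatin (log2 fold change 0.62 ± 0.10, edgeR adjusted p = 8.8e-05), and 15 of 16 treated mice exceeded the WTD median. Serpina1c, an alpha-1-antitrypsin gene with near-identical copies, rose by 0.62. Summed over the list, the levels were 57946.7 to 113799.7 CPM on WTD and 68122.4 to 137520.5 CPM with atorvastatin. CPM are shares, so abundant RNAs weigh on the levels of all others. The 20 most abundant genes took 18.8% to 23.4% of counts on WTD and 19.4% to 25.2% with atorvastatin. With those 20 genes left out, 710 genes were called higher and 637 lower.

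RNAs encoded in the mitochondrial genome took 2.76% to 4.34% of counts on WTD and 4.04% to 5.09% with atorvastatin. Of 12 tested mitochondrial genes 6 were higher and 1 lower. mt-Cytb, a subunit of complex III, was at 5073.3 to 9881.2 CPM (median 6679.9) on WTD and 7538.1 to 11461.2 CPM (median 9148.2) with atorvastatin (log2 fold change 0.45 ± 0.08, edgeR adjusted p = 0.00018), and mt-Nd2 and mt-Co1 rose by 0.43 and 0.42. mt-Co3, at 18.8 to 57.2 CPM (median 40.0) on WTD and 16 to 45.1 CPM (median 22.1) with atorvastatin, fell (log2 fold change -0.59 ± 0.14, edgeR adjusted p = 0.0039), a call that was lost without the 6 libraries short of weak genes (adjusted p = 0.072, edgeR). The median of the list was 0.34, and it was -0.46 over the 8 members that remained when the 20 most abundant genes were left out. That setting removes 4 members, all of them called higher, and so does not concern the same genes. Nuclear subunits of the respiratory chain had 3 higher and 1 lower genes of 53, and 6 and none without Gen#20. Their median was 0.03. Ndufs1, of complex I, rose by 0.33 ± 0.07. None of 74 mitochondrial ribosomal protein genes was called by edgeR, 1 was lower without the 6 libraries short of weak genes, with a median of -0.05, 12 had an unadjusted p under 0.05, voom called 2 higher and DESeq2 none.

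Genes of cytosolic ribosomal proteins leaned lower. Of 44 genes of the large subunit 28 were called lower and of 31 of the small subunit 20, none was higher, and all 75 fold changes were negative, with medians of -0.30 and -0.34. Rps14 was at 328 to 720.0 CPM (median 537) on WTD and 276 to 593 CPM (median 326) with atorvastatin (log2 fold change -0.59 ± 0.10, edgeR adjusted p = 0.00013). Rps9 was at 262 to 423 CPM (median 344) on WTD and 229 to 321 CPM (median 267) with atorvastatin (log2 fold change -0.37 ± 0.06, edgeR adjusted p = 0.00018), and all 16 treated mice were below the WTD median. Rpl12 fell by 0.42 and Rpl5 by 0.32. Ribosomal protein genes have many processed copies in the genome, so their counts are uncertain in detail. Their summed levels were 8971.8 to 13759 CPM on WTD and 7644.2 to 10897.1 CPM with atorvastatin for the large subunit. These calls depended on the libraries, since with the share of missed weak genes as a covariate 4 large and 7 small subunit genes were called lower. Without the 6 libraries short of weak genes 22 and 16 were. The 33 translation factors included 2 higher and 3 lower genes, and 4 and 5 without Gen#20. Their median was -0.05.

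Of 31 proteasome genes 1 was higher (Psmd11, 0.23) and 1 lower (Psmd8, -0.38), and the call of Psmd11 was lost without the 6 libraries short of weak genes (edgeR adjusted p = 0.025). Of 25 genes of the unfolded protein and integrated stress response 2 were higher. Sel1l, which helps to extract misfolded proteins from the endoplasmic reticulum, was at 92.6 to 170.0 CPM (median 129) on WTD and 139 to 212 CPM (median 174) with atorvastatin (log2 fold change 0.48 ± 0.07, edgeR adjusted p = 4.1e-05), and Herpud1, of the same machinery, rose by 0.42 ± 0.11 but was called in 14 of 32 fits that left out 1 mouse. The chaperone genes that define this response had small fold changes, 0.16 ± 0.13 for Hspa5 and 0.20 ± 0.10 for Hsp90b1, and neither was called. The ER stress element, searched on either strand, was in the promoters of 7 of the 23 list genes with a RefSeq promoter (30.4%) against 0.137% of all genes, and none of those 7 genes was called. Of 17 NRF2 targets and antioxidant genes, Cat (catalase) alone was called. Cat was at 1095.7 to 2778 CPM (median 1475.2) on WTD and 1676.3 to 2726.5 CPM (median 2389.3) with atorvastatin (log2 fold change 0.54 ± 0.10, edgeR adjusted p = 0.00015), and all 16 treated mice exceeded the WTD median.

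Genes for secreted plasma proteins went both ways. Among 22 tested acute phase genes 7 were lower and 1 higher. Lcn2, an iron-trapping protein of innate defence, was at 76.6 to 591 CPM (median 361) on WTD and 40.0 to 580.0 CPM (median 126) with atorvastatin (log2 fold change -1.28 ± 0.30, edgeR adjusted p = 0.0029), with the treated mouse Gen#23 at 580.0 CPM and the WTD mouse Gen#20 at 76.6 CPM. Hp, haptoglobin, was at 4283.2 to 9037 CPM (median 7466.7) on WTD and 3494.5 to 7334.6 CPM (median 5381.3) with atorvastatin (log2 fold change -0.51 ± 0.09, edgeR adjusted p = 0.0001), and Saa3 and Saa1, serum amyloid A genes, fell by 1.09 and 0.77. Saa1 and Saa2 are near-identical, so reads they share are uncertain. Serpina3m, a protease inhibitor, rose by 0.54. The fibrinogen chains Fga, Fgb and Fgg had 0.21, 0.17 and 0.17 without a call. Coagulation genes leaned higher, with 8 higher and 3 lower of 24 and a median of 0.23. In comparison, 817 of the 3502 tested genes with at least 1000 mean counts were called, and 9.33% of all tested genes. Serpinc1, antithrombin, was at 1753.3 to 2994.7 CPM (median 1991.7) on WTD and 2044.1 to 3416.6 CPM (median 2936.5) with atorvastatin (log2 fold change 0.40 ± 0.08, edgeR adjusted p = 0.00053), and F12 and F5 rose by 0.35 and 0.42. The lower ones were Vwf (-0.59), Plau (-0.64) and Tfpi (-0.50), which endothelial and other cells make.

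Complement had 6 genes higher and 6 lower of 27. The lower genes held all chains of C1q, which macrophages make. C1qa was at 142 to 328 CPM (median 209) on WTD and 95.5 to 210.0 CPM (median 137) with atorvastatin (log2 fold change -0.63 ± 0.10, edgeR adjusted p = 3.5e-05), C1qb fell by 0.56 and C1qc by 0.56. The higher genes were Mbl2, Masp2, Masp1, Hc, Cfi and C4b, from 0.49 to 0.24, which hepatocytes secrete. In iron handling 4 of 15 genes were higher and 2 lower. Hamp2, a copy of the hepcidin gene, was at 34.7 to 331 CPM (median 84.7) on WTD and 39.6 to 528 CPM (median 263) with atorvastatin (log2 fold change 1.49 ± 0.32, edgeR adjusted p = 0.0017). Hamp and Hamp2 are close copies, and Hamp rose by 0.88. Tmprss6 and Tfr2, which restrain and promote hepcidin expression, rose by 0.36 and 0.38, and Hpx, which binds haem in plasma, was at 4650.5 to 8031.5 CPM (median 7318.7) on WTD and 4565.5 to 7270.5 CPM (median 5897.4) with atorvastatin (log2 fold change -0.28 ± 0.07, edgeR adjusted p = 0.0029).

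Matrix genes were lower in part. Of 24 proteoglycan and matrix glycoprotein genes 10 were lower and 2 higher, of 27 genes of collagen processing and proteases 8 were lower, and of 12 fibrillar and microfibrillar collagens 3 were lower and 1 higher. Mgp, matrix Gla protein, was at 0.35 to 29.1 CPM (median 11.5) on WTD and 1.86 to 9.04 CPM (median 3.1) with atorvastatin (log2 fold change -1.68 ± 0.32, edgeR adjusted p = 0.00043). Lum, lumican, which spaces collagen fibrils, was at 21.7 to 209 CPM (median 138) on WTD and 29.9 to 109 CPM (median 45) with atorvastatin (log2 fold change -1.38 ± 0.24, edgeR adjusted p = 0.00027), and all 16 treated mice were below the WTD median. Mfap4, of elastic fibres, fell by 1.07. Fn1, fibronectin, went against the list, at 973 to 2318.2 CPM (median 1421.3) on WTD and 1313.1 to 2650.5 CPM (median 2105.3) with atorvastatin (log2 fold change 0.51 ± 0.09, edgeR adjusted p = 0.00024), and Ecm1 rose by 0.61, and hepatocytes secrete both. Among collagens, Col6a2 and Col6a1 fell by 0.67 and 0.50, Col14a1 rose by 0.35, and Col1a1 was at 155 to 579 CPM (median 401) on WTD and 102 to 605 CPM (median 190.0) with atorvastatin without a call (log2 fold change -0.76 ± 0.22, edgeR adjusted p = 0.016). The lowest WTD mouse was Gen#20 at 155 CPM, and without it the edgeR adjusted p of Col1a1 was 0.0057 and 7 of the 12 were called lower.

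Of the 27 collagen processing and protease genes 19 were not called, and the 8 lower ones held both proteases and inhibitors. Mmp14, a membrane protease that cuts collagen, was at 116 to 304 CPM (median 229) on WTD and 120.0 to 208 CPM (median 154) with atorvastatin (log2 fold change -0.58 ± 0.09, edgeR adjusted p = 4.1e-05), Timp2 fell by 0.58, and Timp1, at 1.93 to 19.3 CPM (median 10.9) on WTD and 1.06 to 7.93 CPM (median 4.1) with atorvastatin, fell (log2 fold change -1.27 ± 0.26, edgeR adjusted p = 0.00077). Of 14 basement membrane genes, Col4a5 fell by 0.76 and Col18a1 rose by 0.36. Of 20 TGF beta genes 5 were lower and none higher, and 8 were lower without the 6 libraries short of weak genes. Without Gen#20, 4 of the 14 basement membrane genes were lower. Ltbp2, a protein of elastic microfibrils named for its likeness to the binders of latent TGF beta, was at 11.9 to 98.8 CPM (median 60.9) on WTD and 8.98 to 46.6 CPM (median 15.4) with atorvastatin (log2 fold change -1.52 ± 0.29, edgeR adjusted p = 0.00058). No treated mouse was above the WTD median. Tgfb3 and Bambi fell by 0.90 and 0.74, whereas Smad2, Smad3 and Smad4, the signal carriers, had -0.01, -0.03 and 0.14 and were not called.

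Markers of the cells that make matrix did not move as a block. Of 17 stellate cell and myofibroblast markers 5 were lower and 1 higher, with a median of -0.04 and summed levels of 670.0 to 1101.1 CPM on WTD and 649 to 865 CPM with atorvastatin. Pdgfrb, a growth factor receptor of these cells, was at 51.4 to 124 CPM (median 81.4) on WTD and 39.4 to 73.6 CPM (median 53.3) with atorvastatin (log2 fold change -0.62 ± 0.09, edgeR adjusted p = 2.4e-05), and Vim and Cygb fell by 0.64 and 0.61. The defining markers Lrat and Des had 0.33 ± 0.10 and -0.28 ± 0.12, Acta2, of activated myofibroblasts, had 0.14 ± 0.19, none of them called, and Reln rose by 0.46. Without Gen#20, 8 of the 16 cholangiocyte markers below were called. All 16 cholangiocyte markers had negative fold changes and 5 were called lower, with summed levels of 995 to 2446.1 CPM on WTD and 937 to 2018.1 CPM with atorvastatin. Spp1, osteopontin, which injured ducts and macrophages make, was at 159 to 776 CPM (median 532) on WTD and 194 to 551 CPM (median 274) with atorvastatin (log2 fold change -0.80 ± 0.17, edgeR adjusted p = 0.0012). Krt8 and Krt18, which hepatocytes also express, fell by 0.50 and 0.46, the duct keratin Krt7 fell by 0.78 and Krt19 had -0.63 ± 0.21 without a call. Of 19 endothelial markers 5 were higher and 2 lower. Clec4g, a lectin of sinusoidal endothelium, was at 25.2 to 59.7 CPM (median 36) on WTD and 31.4 to 68.3 CPM (median 58.1) with atorvastatin (log2 fold change 0.58 ± 0.10, edgeR adjusted p = 0.00022), Vwf and Cd34, of larger vessels and capillaries, fell by 0.59 and 0.95, and the defining markers Stab2 and Lyve1 had -0.03 ± 0.07 and -0.22 ± 0.18.

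Markers of macrophages leaned lower. Of 23 macrophage and monocyte markers 15 were lower and none higher, and all 23 fold changes were negative, with a median of -0.54 and summed levels of 1706.5 to 3697.9 CPM on WTD and 1412.3 to 2592.8 CPM with atorvastatin. Lyz2, lysozyme, was at 505 to 1603.6 CPM (median 1134.2) on WTD and 386 to 949 CPM (median 520.0) with atorvastatin (log2 fold change -0.997 ± 0.12, edgeR adjusted p = 3e-06). The lowest WTD mouse was Gen#20 at 505 CPM, and all 16 treated mice were below the WTD median. Cd68, a macrophage glycoprotein, was at 57.7 to 129 CPM (median 95.6) on WTD and 42.4 to 89.5 CPM (median 62.5) with atorvastatin (log2 fold change -0.57 ± 0.11, edgeR adjusted p = 0.00038), and Aif1 and Tyrobp fell by 0.75 and 0.74. Adgre1, the F4/80 antigen, had -0.37 ± 0.15 and was not called, and Itgam had no count in any library. Of 18 markers of lipid-associated macrophages, the cells that gather around fat-laden hepatocytes, 12 were lower and none higher, with a median of -0.76. Capg, an actin-capping protein, was at 48.7 to 94.7 CPM (median 68.8) on WTD and 22.3 to 55.6 CPM (median 41.8) with atorvastatin (log2 fold change -0.82 ± 0.11, edgeR adjusted p = 7.8e-06), and 12 of 16 treated mice were below every WTD mouse. The defining markers Trem2 and Gpnmb fell by 0.98 and 0.87, and Lgals1 by 0.82. The 12 Kupffer cell markers included 1 higher and 2 lower genes. Their median was 0.05, and their summed levels were 1450.1 to 3150.7 CPM on WTD and 1400.7 to 2119.7 CPM with atorvastatin. Clec4f, a lectin that marks these cells, was at 111 to 398 CPM (median 175) on WTD and 107 to 408 CPM (median 323) with atorvastatin (log2 fold change 0.61 ± 0.16, edgeR adjusted p = 0.0052), Cd5l fell by 0.40, and the residency marker Timd4 had -0.48 ± 0.38 without a call. That macrophage and Kupffer lists differ was not tested.

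Markers of lymphocytes and neutrophils were too weak for firm statements. None of 7 tested neutrophil markers and none of 17 T and NK cell markers was called by edgeR, and voom and DESeq2 called none either, while 1 and 2 had an unadjusted edgeR p under 0.05. Their summed levels were 24.6 to 55 CPM on WTD and 18.2 to 50.1 CPM with atorvastatin for neutrophils and 17.7 to 58.4 CPM on WTD and 22.3 to 42.8 CPM with atorvastatin for T and NK cells. S100a8 had -0.62 ± 0.37 and Cd3e -0.06 ± 0.43, and Ly6g was at most 1.43 CPM in any mouse. Of 11 B and plasma cell markers Cd22 fell by 0.43, but it was called in 21 of 32 fits that left out 1 mouse and not in the fit on all 42 libraries (edgeR adjusted p = 0.077). Erythrocyte RNA was present at 225 to 967 CPM on WTD and 237 to 615 CPM with atorvastatin with none of 6 genes called by edgeR, DESeq2 or voom, none at an unadjusted p under 0.05, and 0.03 ± 0.17 for Hba-a1. Of neighbouring tissues, the fat marker Adipoq was at most 0.349 CPM, and the pancreatic enzymes Cpb1 and Pnlip reached 2.46 and 1.7 CPM on WTD and 0.419 and 0 CPM with atorvastatin. Cpa1 is listed at 0, as are Cox4i1 and Rpl13, which every cell uses, so such zeros may not be absence. The part that changes in cell makeup had in any fold change above was not tested.

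Of 30 genes of Toll-like receptor and NF-kappaB signalling 7 were called lower and 1 higher, against 4.40% and 4.93% of all tested genes. Without Gen#20, 10 were lower, and in the fit on all 42 libraries 2 were. Cd14, the lipopolysaccharide co-receptor, was at 17.2 to 58.3 CPM (median 48.5) on WTD and 11.4 to 40.4 CPM (median 21.8) with atorvastatin (log2 fold change -0.98 ± 0.15, edgeR adjusted p = 6.6e-05), Tlr13 and Tnfaip3 fell by 0.80 and 0.73, and Chuk rose by 0.32. Tlr4 was at 8.98 to 27.9 CPM (median 12.8) on WTD and 5.02 to 15.2 CPM (median 10.2) with atorvastatin and was not called (log2 fold change -0.48 ± 0.15, edgeR adjusted p = 0.016). Without Gen#20 Tlr4 was called (edgeR adjusted p = 0.007), and without the 6 libraries short of weak genes it was not (0.038). Nfkb1 was not called, with -0.13 ± 0.07. Of 21 tested inflammasome and interleukin 1 genes 1 was lower and 2 higher. Nlrp3, the sensor of the main inflammasome, was at 0 to 11.1 CPM (median 6.1) on WTD and 1.99 to 8.81 CPM (median 5.98) with atorvastatin (log2 fold change -0.08 ± 0.26, edgeR adjusted p = 0.88), and Il1b was at 0 to 16.5 CPM (median 6.85) on WTD and 3.45 to 18 CPM (median 5.93) with atorvastatin (log2 fold change 0.11 ± 0.32, edgeR adjusted p = 0.87). With SEs of 0.26 and 0.32, even a change of more than small size could have gone uncalled, so absence of a change is not shown. Nlrp6, an inflammasome sensor of epithelia, was at 116 to 246 CPM (median 142) on WTD and 118 to 313 CPM (median 221) with atorvastatin (log2 fold change 0.56 ± 0.12, edgeR adjusted p = 0.00085), and Il18 had 0.51 ± 0.17 without a call (edgeR adjusted p = 0.028). Of 7 NADPH oxidase subunits 2 were lower and none higher. Cyba was at 40.5 to 122 CPM (median 84.6) on WTD and 35.2 to 63.1 CPM (median 50.7) with atorvastatin (log2 fold change -0.80 ± 0.11, edgeR adjusted p = 9.9e-06).

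Of 19 tested chemokines 5 were lower and 2 higher, whereas the fit on all 42 libraries called 1 lower and none higher (edgeR adjusted p = 0.051 for Ccl6 and 0.039 for Cx3cl1). Cxcl16, which binds oxidized lipid, was at 43 to 103 CPM (median 74.7) on WTD and 32.7 to 69.2 CPM (median 43.6) with atorvastatin (log2 fold change -0.62 ± 0.11, edgeR adjusted p = 0.00014), Cx3cl1 and Ccl6 fell by 0.90 and 0.56, Ccl2 fell by 0.63 and Cxcl9 rose by 0.50. The call of Cxcl9 was lost without the 6 libraries short of weak genes (adjusted p = 0.023, edgeR). MHC class II genes were lower, 7 of 14, with a median of -0.49. H2-Ab1 was at 183 to 401 CPM (median 335) on WTD and 153 to 299 CPM (median 229) with atorvastatin (log2 fold change -0.54 ± 0.09, edgeR adjusted p = 7.9e-05), and H2-Eb1 fell by 0.58. Interferon-induced genes stayed near all genes, with 1 higher and 1 lower of 28 and a median of 0.10. Ubd, a ubiquitin-like modifier induced by interferon gamma and TNF, was the 1 lower gene among 17 of class I loading and immunoproteasome. Ubd (chr17:37193892-37196095) was at 3.28 to 46 CPM (median 29.8) on WTD and 2.32 to 10.6 CPM (median 5.11) with atorvastatin (log2 fold change -2.25 ± 0.26, edgeR adjusted p = 3e-06). Each of the 16 treated mice was below the WTD median, Gen#20 was the lowest WTD mouse, and without it the adjusted p was 1e-08. The class I genes H2-Q6 and H2-Q7, near-identical copies, rose by 0.52 and 0.38, and the call of H2-Q7 was lost without the 6 libraries short of weak genes (edgeR adjusted p = 0.013). Psmb8 and Psmb9 had -0.25 and 0.00 and were not called.

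Lysosomal genes were lower in part. Of 13 cathepsins 4 were lower and none higher, and of 39 tested lysosomal enzymes and proton pump genes 11 were lower and 1 higher. The share called was 9.33% over all tested genes, and 817 of the 3502 with at least 1000 mean counts were called. Ctsk, a collagen-cutting cathepsin of osteoclasts and macrophages, was at 3.02 to 34.8 CPM (median 18.3) on WTD and 2.52 to 13.9 CPM (median 5.67) with atorvastatin (log2 fold change -1.41 ± 0.24, edgeR adjusted p = 0.00014). Ctsb, which most cells use, was at 1461.5 to 2137.7 CPM (median 1840.5) on WTD and 1242.5 to 1705.9 CPM (median 1501.5) with atorvastatin (log2 fold change -0.29 ± 0.06, edgeR adjusted p = 0.00048), and all 16 treated mice were below the WTD median. Ctss, of antigen-presenting cells, fell by 0.71, whereas Ctsd and Ctsl had -0.13 ± 0.09 and 0.03 ± 0.05 and were not called. Hexa, a hexosaminidase subunit, was at 111 to 218 CPM (median 169) on WTD and 98.1 to 141 CPM (median 121) with atorvastatin (log2 fold change -0.49 ± 0.07, edgeR adjusted p = 1.8e-05), and Atp6v0b fell by 0.35. Of 16 tested annexins and S100 proteins 7 were lower and none higher. Anxa2 was at 77.8 to 266 CPM (median 226) on WTD and 54.8 to 198 CPM (median 95.4) with atorvastatin (log2 fold change -0.94 ± 0.17, edgeR adjusted p = 0.0003), and Anxa1 and S100a11 fell by 0.73 and 0.73.

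Among genes with a mean of at least 100 counts, large falls outside these groups came from varied genes. Elf3, an epithelial transcription factor, was at 1.14 to 33.9 CPM (median 24.3) on WTD and 0.298 to 17.5 CPM (median 6.32) with atorvastatin (log2 fold change -1.69 ± 0.33, edgeR adjusted p = 0.00064). Fxyd6, a modulator of the sodium pump, fell by 1.66, Itgbl1, a secreted integrin-like protein, by 1.54, Ncam1, an adhesion molecule of stellate cells and nerves, by 1.41, and Fndc5, the precursor of irisin, by 1.52. Serpinb6a, a protease inhibitor and one of the genes with the smallest p, was at 41.3 to 127 CPM (median 97.7) on WTD and 34 to 72.2 CPM (median 47.1) with atorvastatin (log2 fold change -0.95 ± 0.12, edgeR adjusted p = 3.6e-06). In every one of these genes all 16 treated mice were below the WTD median. Among the large rises outside the groups, Chrna4, an acetylcholine receptor subunit, was at 1.84 to 80.8 CPM (median 19.5) on WTD and 7.57 to 242 CPM (median 77.4) with atorvastatin (log2 fold change 1.90 ± 0.45, edgeR adjusted p = 0.0032), and without the 6 libraries short of weak genes it was not called (adjusted p = 0.018, edgeR).

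None of 17 tested clock genes was called by edgeR. Nr1d1, a repressor of the clock with a strong daily rhythm, was at 49.7 to 227 CPM (median 89.1) on WTD and 62.1 to 314 CPM (median 171) with atorvastatin (log2 fold change 0.65 ± 0.25, edgeR adjusted p = 0.067), and voom called 4 of the 17 higher and DESeq2 none, and 3 had an unadjusted edgeR p under 0.05. Without Gen#20, and also without the 6 libraries short of weak genes, edgeR called 1 of the 17 higher. Of 30 genes of the cell cycle and DNA replication 1 was higher and 1 lower. Ccnd1, cyclin D1, was at 120.0 to 261 CPM (median 185) on WTD and 206 to 362 CPM (median 261) with atorvastatin (log2 fold change 0.51 ± 0.09, edgeR adjusted p = 9e-05), and Cdk4, its kinase partner, fell by 0.28. Of 19 hepatokine genes 2 were called. Without Gen#20, and also without the 6 libraries short of weak genes, 3 were higher and 1 lower. Angptl6 rose by 0.85 ± 0.19 and Sparcl1 fell by 0.88, and Fgf21 and Gdf15 had -0.37 ± 0.28 and -0.24 ± 0.15.

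Further counts differed by over 1.5 times under 2 other settings. In the fit on all 42 libraries, 2 genes of TGF beta signalling were lower, 4 annexins and S100 proteins, 6 lysosomal genes and 1 NADPH oxidase subunit. In the same fit 6 genes of bile acid synthesis and 1 of mitochondrial fatty acid oxidation were higher. Translation factors had 2 higher and 1 lower. Basement membrane and interferon genes each had 1 higher and none lower, and the proteasome had 1 lower and none higher. With the share of missed weak genes as a covariate, 3 genes of the mevalonate arm were higher, 3 of triacylglycerol and VLDL assembly and 1 of the SREBP machinery. So were 2 endothelial markers and 1 hepatocyte transcription factor, and 6 lysosomal genes were lower. Chemokines had 1 higher and 3 lower. The inflammasome, unfolded protein and cell cycle lists each had 1 higher and none lower. Translation factors and the proteasome each had 1 lower and none higher, and no B or plasma cell marker was called.

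Over all tested genes the median SD of log2 CPM was 0.395 on WTD and 0.313 with atorvastatin. Among the 3502 genes with at least 1000 counts on average, where missed molecules weigh less, it was 0.222 and 0.194, and the SD was larger on WTD in 2114 of them and not in 1388. Without Gen#20, a setting chosen after seeing the data, the WTD medians were 0.381 and 0.203, and 1849 of the 3502 genes had the larger SD on WTD. How far the shortage of weak genes in WTD libraries contributes was not tested.

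**Figure D5:**
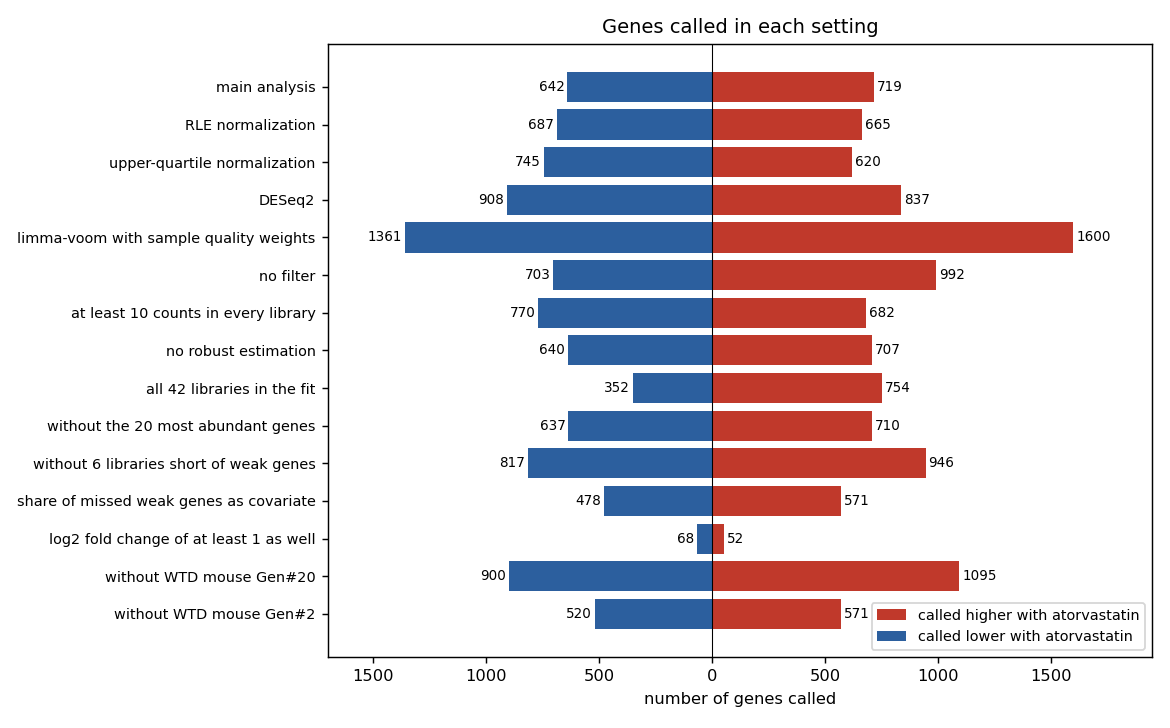
Number of genes called (x axis) higher (red, right) and lower (blue, left) with atorvastatin in each setting of the analysis. The main analysis called 719 and 642, and the all-42-library fit called fewer lower genes (352) than any other setting drawn except that with a minimum fold change.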

How the data were processed

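Snap-frozen liver RNA was made into strand-specific, poly(A)-selected paired-end libraries, 1 per mouse. The authors trimmed reads with Trimmomatic, aligned them with STAR 2.5 to GRCm38 (GENCODE annotation) and deposited raw counts per gene from HTSeq 0.6.1p1. These deposited counts were used as they were. Read pairs that aligned to several places, 4.07% to 5.11% per library, or fitted several genes, 5.44% to 6.57%, were not counted on any gene, nor were those in no gene (2.00% to 2.78%), and these lines were left out of library sizes. Genes were filtered with filterByExpr (minimum count 10) and fitted on the 32 libraries with edgeR 4.0.16 in R 4.3.3 (TMM factors, robust quasi-likelihood test, adjusted p under 0.01), a procedure tested on simulated data. Single values were compared by a permutation test with 100000 resamples. Alternatives were DESeq2 1.42.0, limma 3.58.1 with voom, other scalings, filters and thresholds, all 42 libraries, leaving out libraries and a covariate.

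The members and lists were chosen with earlier results of these data known. Genes were named by rule as the 15 largest rises and falls among called genes with at least 100 mean counts, the 5 smallest p in each direction, the 3 smallest p of each list and the smallest against its median, genes without overlap, and genes the study turns on, and further list members were named after their values were seen. Atorvastatin was given in the food of mice housed in groups, and cages are not given. The p values therefore measure the spread between mice as if each were independent. They may be too small if mice of a cage were alike. The promoters were those of RefSeq.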

Additional observations from a re-analysis of the deposited data

How the results depend on the processing

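The number of called genes, 1361 (719 higher, 642 lower), changed with the method. With the share of missed weak genes as a covariate, 1049 were called (571 higher, 478 lower), and 906 of them were among the 1361. Without the 6 libraries short of weak genes, 1763 were called (946 higher, 817 lower), and 1180 of them were among the 1361. limma-voom called 2961 (1600 higher, 1361 lower), and an adjusted p under 0.05 gave 2583 (1345 higher, 1238 lower). Requiring a log2 fold change of at least 1 left 120 (52 higher, 68 lower, so 43.3% were higher). The fit on all 42 libraries called 352 lower genes and 754 higher (68.2% higher), and 1023 of its calls were shared with the 32-library fit. Leaving out each mouse in turn gave 1091 to 1995 calls, with 571 to 1095 higher and 520 to 900 lower, the most without Gen#20 and the fewest without Gen#2. The count of genes whose groups do not overlap was 1, 17 without the 6 libraries short of weak genes and 11 without Gen#20, a setting chosen after seeing the data. The median of mitochondrially encoded genes was 0.34, and -0.46 without the 20 most abundant genes, 4 of which are higher members of this list and leave it with that setting. Other causes were not tested. No paired analysis was possible because the groups share no mouse and the labels name no pairs of mice. The shortage of weak genes occurred in deep and in shallow libraries. Gen#29 had 27471550 counts and missed 20.8%, and the WTD mouse Gen#13 had 17414263 counts and missed 48.5%. The treated mice Gen#32 and Gen#28, with 34464242 and 31679397 counts, missed 11.3% and 12.5%. The WTD mouse Gen#19, with 36224054 counts, missed 0.08%. A relation to total counts was not tested.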
